A study of Mus musculus with 2 samples.

Results

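The cells described here are those that still carried pluripotency transcripts after 9 days of differentiation toward spinal neurons. They were chosen by their counts of 2 genes: a cell was a member when it had at least 10 unique molecular identifiers (UMIs, the counted transcript molecules) of Dppa5a and at least 3 of Pou5f1, counted over barcodes that showed 1000 genes or more and took no more than 10% of their UMIs from mitochondrial genes. There were 466 members among 14688 cells that passed these limits, out of 22825 barcodes. The counts came from the MM13 line of mouse embryonic stem cells, differentiated under 1 of 2 conditions, RA or RA+BMP4. Retinoic acid (RA) is a vitamin A derivative that gives neural tissue a posterior identity, and BMP4 is the dorsalizing signal that was added to it in the second culture. Each condition was 1 library of the droplet-based 10x 3′ assay, and cells had been dissociated in cold trypsin and depleted of dead cells. Both groups carried the same MM13 genotype and both received RA, so no culture without RA was compared, and no dose was given in the sources used here. With 1 library per condition, no difference between RA and RA+BMP4 below has a replicate check or a test, and the 95% intervals cover counting error only.

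Pluripotent mouse cells move through a series of states. Naive cells resemble the epiblast of the blastocyst and are held by LIF and STAT3 signalling and by factors such as Nanog, Klf2, Klf4, Esrrb, Tfcp2l1 and Tbx3. Formative and primed cells resemble the epiblast after implantation, in which FGF and Nodal signalling act and Otx2, Fgf5 and Pou3f1 are switched on, and Pou5f1 (the factor OCT4) is shared by all of these states. Dppa5a encodes a small RNA-binding protein of early embryos and stem cells, and Zfp42 (REX1) is a zinc finger gene widely used as a naive reporter.

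Members made up 5.18% of RA cells (313 of 6038, exact 95% interval 4.64 to 5.77) and 1.77% of RA+BMP4 cells (153 of 8650, 1.5 to 2.07). These shares moved with the settings. In cells thinned to 10000 UMIs, with the limits lowered to 5 UMIs of Dppa5a and 1 of Pou5f1, they were 6.10% and 3.06%. Cells under 10000 UMIs left that denominator, so depth, limits and denominator changed together. Stricter limits on cells (2000 genes, 5% mitochondrial) left 61 RA and 95 RA+BMP4 members. These are counts and not shares, because the limits also removed other cells. The median mitochondrial share was 6.16% in RA members and 6.05% in other RA cells, above the 5% limit. In RA+BMP4 it was 4.64% and 4.21%, below it. The counts that chose them ranged from 11 to 874 UMIs of Dppa5a with a median of 238 in RA, and from 19 to 673 with a median of 204 in RA+BMP4. Pou5f1 ranged from 3 to 88 with a median of 22 in RA, and from 3 to 69 with a median of 13 in RA+BMP4. Some cells sat next to the limits. Just inside, 5 RA members and 1 RA+BMP4 member had at most 20 UMIs of Dppa5a, and 12 and 9 members had exactly 3 of Pou5f1. Just outside, 32 RA cells and 30 RA+BMP4 cells met the Dppa5a limit but fell short on Pou5f1, with a median of 43 and 41 Dppa5a UMIs. Of these, 18 and 16 had 1 or 2 UMIs of Pou5f1. Relative to the 313 and 153 members, this edge was larger in RA+BMP4.

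The RA library held 122110565 UMIs and the RA+BMP4 library 115268932, and members carried 16.2% and 6.04% of the UMIs of passing cells. Members were deeper than the rest, with a median of 55818 UMIs in RA and 42117 in RA+BMP4, against 13985 and 10525 in the other cells, so shares of cells with a UMI are given below after thinning each cell to 10000 UMIs. Thinning left out 2 RA members and no RA+BMP4 member, and 1153 RA and 3788 RA+BMP4 other cells. The Scrublet doublet caller marked 4.47% of RA members and 6.54% of RA+BMP4 members, against 2.17% and 3.39% of other cells, and no call was removed. The libraries shared 43 barcodes, and 3 RA members and 1 RA+BMP4 member had such a barcode, but no shared barcode was a member in both.

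Zfp42 stands for the identity of these cells, and its proximal promoter is shown because the window holds the octamer, the sequence bound by POU factors such as OCT4. Stra8 and Rec114, meiosis genes whose levels divided the members in the comparison of classes below, are shown with it. The sequences are those of RefSeq on GRCm38.p6, from 250 bases before to 50 bases after the annotated start, written 5′ to 3′ on the strand of the gene, with the searched motif in capitals. Zfp42 lies on the minus strand (chr8:43306960-43307259), Stra8 on the plus strand (chr6:34920698-34920997) and Rec114 on the minus strand (chr9:58741510-58741809).
Zfp42: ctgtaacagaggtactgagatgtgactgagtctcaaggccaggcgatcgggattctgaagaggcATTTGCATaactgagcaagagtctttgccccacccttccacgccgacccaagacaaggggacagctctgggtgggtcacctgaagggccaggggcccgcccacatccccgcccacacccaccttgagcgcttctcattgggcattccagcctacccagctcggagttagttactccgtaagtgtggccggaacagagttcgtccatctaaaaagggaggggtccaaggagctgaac
Stra8: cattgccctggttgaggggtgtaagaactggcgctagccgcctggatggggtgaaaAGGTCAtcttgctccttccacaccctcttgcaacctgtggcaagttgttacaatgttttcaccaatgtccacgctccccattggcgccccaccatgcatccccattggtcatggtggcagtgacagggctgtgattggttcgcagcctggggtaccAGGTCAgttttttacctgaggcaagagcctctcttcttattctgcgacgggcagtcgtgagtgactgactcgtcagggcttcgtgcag
Rec114: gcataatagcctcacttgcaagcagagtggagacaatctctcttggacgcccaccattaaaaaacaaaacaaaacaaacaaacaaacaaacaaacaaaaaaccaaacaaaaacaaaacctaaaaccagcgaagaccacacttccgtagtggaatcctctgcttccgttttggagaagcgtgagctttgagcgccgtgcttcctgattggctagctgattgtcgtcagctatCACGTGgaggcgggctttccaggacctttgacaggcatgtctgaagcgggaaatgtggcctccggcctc
The 3 motifs named here were searched on both strands. The octamer ATGCAAAT occurred 1 time in the Zfp42 window, read there as its reverse complement, and in 1.74% of 32851 promoters of the same length. The nuclear receptor half-site AGGTCA, which retinoic acid receptors bind as a repeat, occurred 2 times in the Stra8 window and in 16.3% of all promoters. The E-box CACGTG occurred 1 time in the Rec114 window and in 7.15% of all promoters. A match is a description of the letters and not a measured binding site.

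The members carried the general pluripotency programme at high level, in both libraries. Levels are given as CPM, the UMIs of a gene per 1000000 UMIs summed over the members of a library. All 18 genes of a general pluripotency list were above the other cells in both libraries, and over the whole transcriptome 8864 genes in RA and 7894 in RA+BMP4 were above, of 31053 listed. L1td1, an RNA-binding protein gene of stem cells, had 744 CPM in RA members and 609 in RA+BMP4 members, against 5.14 and 3.68 CPM in the other cells. Tdgf1, the Nodal co-receptor Cripto, had 454 and 341 CPM, against 2.69 and 0.903. The 15 genes that led the members over the other cells were Dppa5a, L1td1, Zfp42, Tdgf1, Upp1, Pou5f1, Ooep, Klf2, Rbmxl2, Zfp990, Spp1, Nanog, Utf1, Dppa2 and Mymx. Ooep, an oocyte gene, had 276 and 249 CPM against 1.77 and 1.27, and its neighbour Dppa5a, 7932 bases away on chromosome 9, had 4363 and 5268 CPM. L1td1, Tdgf1, Dppa5a, Pou5f1, Zfp42 and Lefty1 were the markers given for the cells, so their height describes the members and tests nothing. Sox2, the factor that pairs with OCT4 and is shared with neural progenitors, had 203 and 206 CPM in members and 139 and 148 CPM in the other cells.

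Neuron, neural progenitor, roof plate and mesenchyme markers were low in the members as summed lists. None of 15 neuron markers was above the other cells in either library, and their summed CPM was 18.5% of that of the other cells in RA and 17.9% in RA+BMP4. Neural progenitor, roof plate and mesenchyme markers summed to 7.26%, 17.0% and 13.7% of the other cells in RA and to 9.55%, 9.26% and 9.49% in RA+BMP4. Of these lists' genes, the ones above the other cells were Sox3, at 102% of their CPM in RA and 167% in RA+BMP4, Olig3, at 141% in RA but 30.1% in RA+BMP4, and Meox1, at 246% and 283%. Neural crest and glia markers summed to 36.7% and 32.0%, with 4 and 1 of 9 above the other cells, among them Erbb3, a neuregulin receptor gene, at 8.18 and 12.4 CPM in members against 0.724 and 2.81. Muscle markers summed to 47.0% in RA and 132.8% in RA+BMP4, with 4 and 8 of 11 above. Most of that sum was Myl4, a myosin light chain gene, at 31.4 and 30.0 CPM in members against 10.3 and 0.903. Fabp7, a fatty acid-binding protein gene of neural progenitors, had 75.7 and 84.2 CPM in members against 1778 and 1151 CPM in the other cells. Neuron and mesenchyme markers together took a median of 0.0782% of the UMIs of an RA member and 0.0556% of an RA+BMP4 member, and no member exceeded 0.5%. Stmn2 stood apart from the other neuron markers: this gene of a microtubule-binding stathmin of growing axons had 552 CPM in RA members and 397 in RA+BMP4 members against 729 and 549 CPM in the other cells. After thinning, Stmn2 was detected in 85.5% of RA members and 75.2% of RA+BMP4 members, above the 55.6% and 49.3% of other cells, while the neuronal tubulin Tubb3 was detected in 30.2% and 35.9% of members and in 68.4% and 59.4% of other cells. Stmn2 and Tubb3 did not keep 1 ratio across the populations: in members the CPM of Stmn2 was above that of Tubb3 (47.5 in RA, 55.8 in RA+BMP4), and in the other cells it was below (851 and 847).

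**Figure D1:**
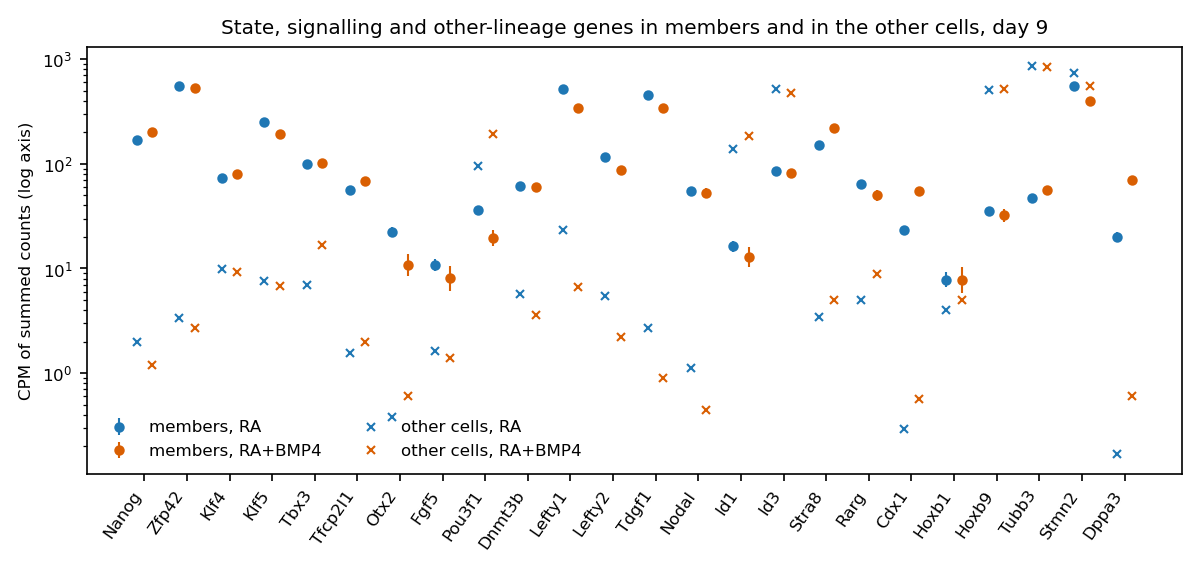
CPM of summed counts on a log axis for 24 genes in members (circles, bars are exact 95% Poisson intervals) and in the other cells (crosses), RA in blue and RA+BMP4 in orange. Naive and Nodal pathway genes lie far above the other cells, with Zfp42 at 555 and 533 CPM against 3.35 and 2.73, whereas Id1, Hoxb9 and Tubb3 lie below them.

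Most naive genes stood above the other cells, and Zfp42 and Nanog were detected in most members. Of 24 naive genes, 23 were above the other cells in both libraries, and Gbx2, a homeobox gene that neural tissue uses too, was the remaining 1, with 10.8 and 6.72 CPM in members against 16.8 and 7.11. Zfp42 had a median of 26 UMIs per RA member, from 0 to 203, and of 19 per RA+BMP4 member, from 0 to 95. After thinning, Zfp42 was detected in 83.9% of RA members (79.4 to 87.8) and 85.0% of RA+BMP4 members (78.3 to 90.2), against 2.52% and 1.44% of other cells. Nanog, the homeobox factor that stabilizes self-renewal, was detected in 65.6% of RA members (60.02 to 70.9) and 69.3% of RA+BMP4 members (61.3 to 76.5). The intervals of the 2 libraries overlapped for both genes. Other naive factors were detected in fewer members after thinning: Klf4 in 34.7% and 38.6%, Tfcp2l1 in 32.8% and 41.2%, Nr0b1 in 38.3% and 35.9%, Esrrb in 25.4% and 22.9% and Nr5a2 in 11.9% and 13.7%. Without thinning, Zfp42 had a UMI in 306 of 313 and 148 of 153 members, and Nanog in 280 and 140.

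Other naive factors were at similar levels in the 2 libraries. Klf2, a Krüppel-like factor of the naive network, had 338 CPM in RA members and 383 in RA+BMP4 members. Klf4 had 72.7 and 79.9 CPM, Tbx3 had 100 and 102 CPM, Tfcp2l1 had 56.7 and 68.8 CPM, and the orphan receptor gene Esrrb had 35.2 and 28.9 CPM. Fbxo15, an F-box gene and an early target of OCT4, had 88.6 and 156 CPM (log2 ratio of RA+BMP4 over RA 0.82, 0.70 to 0.93), the highest ratio of these apart from Dppa3. The median log2 ratio was 0.08 for the naive list, over 23 genes at 5 CPM or more, beside 0.01 for all 10162 genes at that level. The sum of the 24 naive genes in single members ran from 169 to 6960 CPM in RA with a median of 2718, and from 227 to 8850 with a median of 2813 in RA+BMP4. The spread between members within each library was far wider than the distance between the medians.

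Formative and primed genes differed in how many members held them. Tcf15 had a UMI in 92.0% of RA members and 79.1% of RA+BMP4 members, Etv5 in 89.1% and 75.2%, and Dnmt3b in 69.0% and 51.0%, without thinning. RA members were deeper, which raises their unthinned shares. After thinning, Tcf15 was detected in 65.3% and 51.6%, Etv5 in 48.2% and 41.8%, and Dnmt3b in 31.8% and 23.5%. The intervals of the libraries overlapped for each of these genes. Otx2 and Fgf5 were detected in fewer. Otx2, the homeobox factor that opens the formative state, had a UMI in 98 of 313 RA members and 20 of 153 RA+BMP4 members, and up to 48 and 21 UMIs in 1 cell. Fgf5, the growth factor of the early post-implantation epiblast, had a UMI in 71 and 19 members. Otx2 and Fgf5 met in 33 RA members and 8 RA+BMP4 members. Counts were too sparse to say whether a cell without an Otx2 UMI lacked the transcript.

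The formative and primed list leaned lower in RA+BMP4 members. Of the 6030 genes that reached 20 CPM in either library, 21 (0.348%) differed at least 2-fold between the libraries, 16 of them higher (0.265%) and 5 lower (0.0829%) in RA+BMP4 members. Among the 16 primed genes at that level, 2 were lower and none was higher, and the median log2 ratio of the 24 listed genes was -0.25, with 5 of 24 above 0. Otx2 had 22.5 CPM in RA members and 10.8 in RA+BMP4 members (log2 ratio -1.05, 95% interval -1.44 to -0.69). Sfrp2, a secreted Wnt modulator, had 23.2 and 11.2 CPM (-1.06, -1.44 to -0.70). Pou3f1 (OCT6), a POU factor of the primed epiblast and of neural progenitors, had 36.4 and 19.7 CPM in members (-0.89), whereas in the other cells it had 95.3 and 192 CPM (1.01). Tcf15, a bHLH factor that marks exit from the naive state, had 179 and 131 CPM (-0.45), and Dnmt3b, a de novo DNA methyltransferase gene, had 62.0 and 59.4 CPM (-0.06).

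After thinning, the share of members with Otx2 was 13.5% in RA (9.91 to 17.8) and 6.54% in RA+BMP4 (3.18 to 11.7), with 0.153% and 0.340% of other cells. Fgf5 was detected in 8.36% of RA members (5.53 to 12.0) and 2.61% of RA+BMP4 members (0.717 to 6.56). The intervals of the 2 libraries overlapped for both genes, which does not show that the shares were alike, and the difference was not tested.

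Genes were ranked by their correlation with Zfp42 across members. Spearman correlations were taken over counts thinned to 10000 UMIs, in 311 RA and 153 RA+BMP4 members, for 5034 genes, and the mean of the 2 libraries is given as a description. The genes most like Zfp42 were Cobl (0.44), Sox2 (0.39), Nanog (0.39), the junction gene Jam2 (0.37), the Polycomb-like gene Mtf2 (0.37), Kat6b (0.35), the Polycomb partner Jarid2 (0.35), Dppa5a (0.33), Eif4e2 (0.32) and Klf5 (0.32). Dppa5a is a gene of the selection rule. The naive factors Tfcp2l1 (0.23) and Klf4 (0.19) ranked 63 and 92. The lowest was Dnmt3b (-0.31), followed by the collagen chaperone gene Serpinh1 (-0.25) and Mdk (-0.24), and Lefty1 was also among the lowest 10 (-0.23). The median over all genes was 0.00. The genes most like Fgf5 were Lin28a (0.22), an RNA-binding gene that is raised on exit from the naive state, Prtg (0.21) and Lef1 (0.21), all too weak in counts this sparse to be read as a finding.

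Genes of Nodal ligands and their inhibitors stood far above the other cells. Nodal is a TGF-beta ligand that acts through activin receptors with the co-receptor Cripto, and it induces its own inhibitors Lefty1 and Lefty2. Nodal had 54.5 CPM in RA members and 52.7 in RA+BMP4 members (log2 ratio -0.05, -0.23 to 0.13), against 1.11 and 0.442 CPM in the other cells. Gdf3, a related ligand gene, had 86.9 and 84.2 CPM (-0.05), against 1.04 and 0.422. The ligand, co-receptor and inhibitor list summed to 1762% of the other cells in RA and 2233% in RA+BMP4. Most of that sum was Tdgf1 and Lefty1, which were markers given for the cells, so its height tests nothing. Of its 6 genes at 20 CPM or more, none differed 2-fold between the libraries.

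Among the receptors, Acvr2b had 45.8 CPM in RA members and 47.7 in RA+BMP4 members, and Acvr1b had 8.83 and 8.86 CPM. Those levels were below the 64.4 and 63.8 CPM of Acvr2b and the 11.7 and 11.4 CPM of Acvr1b in the other cells. Of the 13 ligand, co-receptor and inhibitor genes, 9 in RA and 8 in RA+BMP4 were above the other cells, and of 15 receptor and effector genes 7 were in each.

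Lefty1 was uneven between cells. It had 522 CPM in RA members and 342 in RA+BMP4 members (-0.61, -0.68 to -0.54), with 0 to 402 UMIs per cell in RA around a median of 7 and 0 to 236 around a median of 2 in RA+BMP4. After thinning it was detected in 58.2% of RA members (52.5 to 63.7) and 39.9% of RA+BMP4 members (32.1 to 48.1), against 4.42% and 2.80% of other cells. Lefty2 had 117 and 87.6 CPM (-0.42). The gene most like Lefty1 across members was Lefty2 (mean rho 0.60). On GRCm38.p6 both lie on the plus strand, Lefty2 at chr1:180893108-180899103 and Lefty1 at chr1:180935022-180938400, with 35919 bases between them. The lowest correlations with Lefty1 included Jam2 (-0.31) and the naive factors Tbx3 (-0.30), Tfcp2l1 (-0.30) and Klf4 (-0.29), so cells rich in Lefty1 tended to have fewer UMIs of these factors.

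BMP receptor and target genes were low in the members of both libraries. None of 11 receptor and effector genes was above the other cells in either library, and they summed to 43.9% and 41.5% of them. Bmpr1a, a type I receptor gene, had 39.9 CPM in RA members and 33.9 in RA+BMP4 members, against 64.6 and 62.5 in the other cells. The 15 target genes summed to 25.6% of the other cells in RA and 23.6% in RA+BMP4. Their median log2 ratio was 0.16 over the 10 genes at 5 CPM or more, none of the 4 at 20 CPM differed 2-fold, and the sign of the median turned to -0.09 at a minimum of 50 CPM.

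Id1, the inhibitor of DNA binding gene that BMP receptors induce directly, had 16.3 CPM in RA members and 12.8 in RA+BMP4 members (-0.34, -0.71 to 0.01), and 138 and 183 CPM in the other cells. After thinning, Id1 was detected in 9.65% of RA members and 11.1% of RA+BMP4 members, against 41.8% and 55.6% of other cells. Id3 had 86.0 and 81.8 CPM (-0.07), and Id2 had 18.3 and 25.8 CPM (0.50). Msx1, a homeobox target that also marks dorsal progenitors, had 19.1 and 19.9 CPM in members against 116 and 217 in the other cells. Cdx2, which the BMP target list holds and which is also a caudal factor, had 1.90 and 9.78 CPM. Zfp423, a zinc finger partner of BMP SMAD proteins, was 1 of the 5 lower genes, at 21.9 and 10.1 CPM (-1.12, -1.52 to -0.74).

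FGF and ERK pathway genes leaned lower in RA+BMP4 members, without any of 10 genes at 20 CPM reaching 2-fold. The median log2 ratio was -0.33, with 4 of 20 genes above 0, and the same median in the other cells was -0.32. The ligand gene Fgf4, which stem cells make themselves, had 44.5 and 49.7 CPM in members (0.16) against 0.294 and 0.128 CPM in the other cells. The receptor gene Fgfr1 had 54.9 and 58.2 CPM. The ERK targets Egr1, Dusp6 and Etv4 had 39.7 and 22.6, 26.1 and 16.7, and 51.4 and 32.2 CPM in RA and RA+BMP4 members, in that order. The 3 targets had fewer counts in RA+BMP4 members, while the ratios of ligand and receptor were near 0.

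LIF pathway genes had a median log2 ratio of 0.14, and none of 7 tested genes differed 2-fold. The LIF receptor gene Lifr had 15.5 and 14.7 CPM, its partner Il6st had 25.0 and 20.9 CPM, and the feedback inhibitor Socs3 had 3.47 and 4.74 CPM. Wnt targets had a median of 0.01, with Cdx1 the only 1 of 9 tested genes past 2-fold, and Axin2, a feedback target of beta-catenin, had 19.4 and 29.6 CPM (0.61, 0.35 to 0.87). Axin2 in the other cells had 53.9 and 117 CPM (1.12).

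Genes of the retinoic acid pathway split into a few that were far above the other cells and others below them. Of 6 at 20 CPM or more, none differed 2-fold between the libraries, and the median log2 ratio of the list was -0.09. Stra8, named for its stimulation by retinoic acid and required for entry into meiosis, had 150 CPM in RA members and 220 in RA+BMP4 members (0.55, 0.46 to 0.65), against 3.43 and 4.99 in the other cells. After thinning it was detected in 49.5% of RA members (43.8 to 55.2) and 50.3% of RA+BMP4 members (42.1 to 58.5), against 1.247% and 0.998% of other cells. Rarg, the retinoic acid receptor gamma gene, had 63.4 and 49.8 CPM against 4.998 and 8.87. Rarb, a receptor gene that is itself a retinoic acid target, was by contrast lower than in the other cells, at 11.3 and 11.5 CPM against 75.0 and 92.4. Stra6, the gene of a retinol transporter, had 12.2 and 5.35 CPM (-1.19), below the level at which a 2-fold difference was called.

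Hox genes were low in the members as a group. Anterior Hox genes summed to 12.6% of the other cells in RA and 11.9% in RA+BMP4, and posterior Hox genes to 8.43% and 8.62%. Hoxb9, a gene of trunk identity, had 35.3 and 32.1 CPM in members against 511 and 513, and after thinning it was detected in 21.5% and 20.3% of members against 82.5% and 79.7% of other cells. Hoxa10 was the reverse: it had 25.0 and 28.9 CPM in members and 0.903 and 0.923 CPM in the other cells.

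Most cell cycle and glycolysis genes were above the other cells in both libraries. All 20 G2 and M phase genes were above the other cells in both libraries, with sums of 216% and 233% of them, and 19 and 20 of 20 S phase genes were above them, with sums of 231% and 271%. Of 23 glycolysis genes, 21 in RA and 19 in RA+BMP4 were above the other cells, with sums of 273% and 195%, while the median log2 ratio between the libraries was -0.04 in members and 0.55 in the other cells. Ldha, the gene of lactate dehydrogenase A, had 1170 and 1199 CPM in members (0.03) and 350 and 638 CPM in the other cells (0.86). Imprinted genes summed to 29.9% and 24.3% of the other cells, and Grb10, an adaptor that restrains growth, had 116 and 62.4 CPM in members (-0.89).

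Few genes passed 2-fold between the RA and RA+BMP4 members. The 21 genes past 2-fold were 0.348% of those tested, whereas 80 of 7154 genes (1.12%) passed in the other cells, 55 higher (0.769%) and 25 lower (0.349%). The member libraries hold far fewer cells, so the 2 percentages rest on different precision. The higher genes were Dppa3, Dazl, Cdx1, Crxos, Cidea, Lonp2, Tbc1d12, Fthl17c, Usp26, Zscan4d, Platr31, 1700013H16Rik and the predicted genes Gm21761, Gm8300, Gm2016 and Gm5039. The lower genes were Otx2, Sfrp2, Zfp423, the scavenger receptor gene Colec12 and the mitochondrial gene mt-Nd3. Just under the limit on the lower side, by the naming rule, were Grb10, Slc7a7, Pou3f1, Abcc4, Trps1, Sall3, Etv1, Tshz1, Egr1, Hist1h2ap and Ndrg1, and on the higher side Dnah8, Ak4, Dennd4c and Scml2. mt-Nd3 had 936 CPM in RA members and 462 in RA+BMP4 members (-1.02), and the other cells had 791 and 311 CPM (-1.35), so that gene differed in the same direction in both populations.

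**Figure D2:**
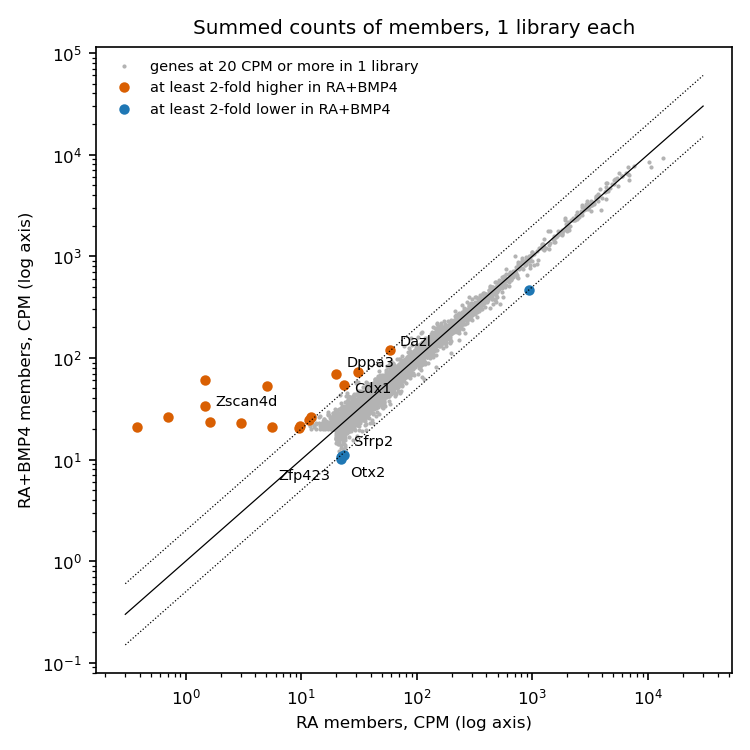
CPM of RA members (x, log axis) against RA+BMP4 members (y, log axis) for the 6030 genes at 20 CPM or more in 1 library, with equality as a solid line and 2-fold as dotted lines. Most genes lie between the dotted lines, and 16 genes (orange) and 5 genes (blue) lie on or beyond them.

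Germ cell genes were among those higher in RA+BMP4 members. Dppa3 (Stella), a maternal chromatin factor that marks naive cells and primordial germ cells, had 19.9 CPM in RA members and 69.8 in RA+BMP4 members (1.81, 1.61 to 2.01). It was concentrated in few cells, with a UMI in 45 of 313 and 44 of 153 members and up to 57 and 104 UMIs in 1 cell. After thinning it was detected in 7.40% of RA members (4.75 to 10.9) and 17.6% of RA+BMP4 members (12.0 to 24.6), against 0.131% and 0.212% of other cells. Here the intervals of the libraries did not overlap.

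Dazl, an RNA-binding gene of germ cells, had 58.0 and 120 CPM (1.05, 0.91 to 1.18) and was detected after thinning in 25.7% of RA members (20.96 to 31.0) and 47.7% of RA+BMP4 members (39.6 to 55.9). Tfap2c, a factor of germ cell specification, had 24.7 and 44.9 CPM (0.86), and Nanos3 had 5.58 and 13.9 CPM (1.32). Prdm1 and Prdm14, regulators that specify primordial germ cells, had 7.58 and 7.49 CPM (-0.02, -0.52 to 0.46), and 5.63 and 6.88 CPM (0.29, -0.25 to 0.81). Over the 11 germ cell genes at 5 CPM or more the median log2 ratio was 0.41, and 2 of the 6 at 20 CPM (Dppa3 and Dazl) were past 2-fold against 0.265% of all genes. The intervals of Prdm1 and Prdm14 included 0, and those of Dppa3 and Dazl did not.

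Among caudal genes, Cdx1 was higher in RA+BMP4 members. It was 1 of 2 genes of the caudal list at 20 CPM, against 0.265% of all genes, and over the 7 at 5 CPM or more the median log2 ratio was 0.77, with 5 above 0. Cdx1, a homeobox gene that Wnt and retinoic acid induce in the posterior epiblast, had 23.4 and 54.6 CPM (1.22, 1.02 to 1.43) against 0.294 and 0.569 CPM in the other cells. It had a UMI in 110 of 313 RA members and 57 of 153 RA+BMP4 members, and after thinning it was detected in 15.4% (11.6 to 19.9) and 19.6% (13.6 to 26.8). Cdx2 had 1.90 and 9.78 CPM, Sp5, a Wnt target of the tail bud, had 1.63 and 7.18 CPM, and Hoxc9 had 4.66 and 16.5 CPM, all under 20 CPM and so not called. T (Brachyury), the defining factor of the primitive streak, had 0.758 and 1.53 CPM, with 13 and 7 members showing a UMI, and of 13 primitive streak genes 1 reached 5 CPM.

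Genes of the 2-cell-like state rested on very few cells. Zscan4d, a gene that marks the rare cells resembling the 2-cell embryo, had 1.46 CPM in RA members and 33.8 in RA+BMP4 members. In RA+BMP4 the UMIs were 176, 31, 12 and 2 in 4 cells, and in RA the 3 highest cells had 11, 4 and 3 UMIs among 11. A separate set of 10 genes was also counted, which was not the fixed 2-cell-like list. That list summed to only 2.82 CPM in RA members and 44.6 in RA+BMP4 members. Over the 10 genes, 1 RA+BMP4 member held 807 UMIs, which is 63.4% of the sum over that library's members. The next 3 held 243, 122 and 53. These counts describe how few cells held the UMIs, and no support is drawn from them. The highest RA member held 31, and 5 members in each library had at least 10. When the member with the most UMIs of each gene was left out, 5 genes were higher and 7 lower in place of 16 and 5. Without that cell Zscan4d still had a log2 ratio of 2.99, but without the top 3 cells of each library it was -0.09. Dppa3 without its top member kept 1.68, and Cdx1 1.14. Without the top 3 cells of each library Dppa3 was 1.67, but Cdx1 and Dazl, both at 0.96, were under 2-fold. In RA+BMP4 members, 3 cells held 30.3% of the Cdx1 UMIs.

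A further division of the members was seen in the distal X chromosome. It was found after the data were examined, in the 51 genes with a mean of 5 to 1000 CPM in members that start from Shroom2 (X:152609509) to the end of the chromosome, the last of them ending at 170019281 on GRCm38.p6. The share of a member's UMIs from these genes fell into a low and a high range, and the members were divided at 0.6%. Low members had a median share of 0.261% in RA and 0.272% in RA+BMP4, and high members 1.18% and 1.17%. Only 4 RA members and 2 RA+BMP4 members lay near the cut, from 0.4% to 0.8%. High members were 227 of 313 in RA (72.5%, 67.2 to 77.4) and 91 of 153 in RA+BMP4 (59.5%, 51.3 to 67.3). Among the other cells, 26.0% in RA and 7.87% in RA+BMP4 were above the cut, with 454 and 412 cells near it.

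Along the chromosome the step lay between Tspyl2 and Shroom2. The distal genes chose the classes, and 47 of 51 were at least 2-fold lower in low members in each library, with medians of -2.22 and -2.25 on the log2 scale, or 4.67-fold and 4.76-fold lower. Of 38 distal genes at 20 CPM in both libraries, 37 (97.4%) were at least 2-fold lower in both, which follows from the choice. The 15 nearest genes before Shroom2, up to Tspyl2, which ends at 152342425, had medians of -0.04 and -0.12, and none reached 2-fold in either direction. All 295 proximal genes had medians of -0.16 and -0.17. Genes of chromosomes 8 and 11, which the rule did not use, were higher in low members: chromosome 8 had a median log2 ratio of 0.33 in RA and 0.38 in RA+BMP4 over 550 genes, and chromosome 11 had 0.31 and 0.25 over 807 genes. The other 17 autosomes lay between -0.13 and -0.04 in RA and between -0.19 and -0.07 in RA+BMP4. DNA copy number was not measured.

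**Figure D3:**
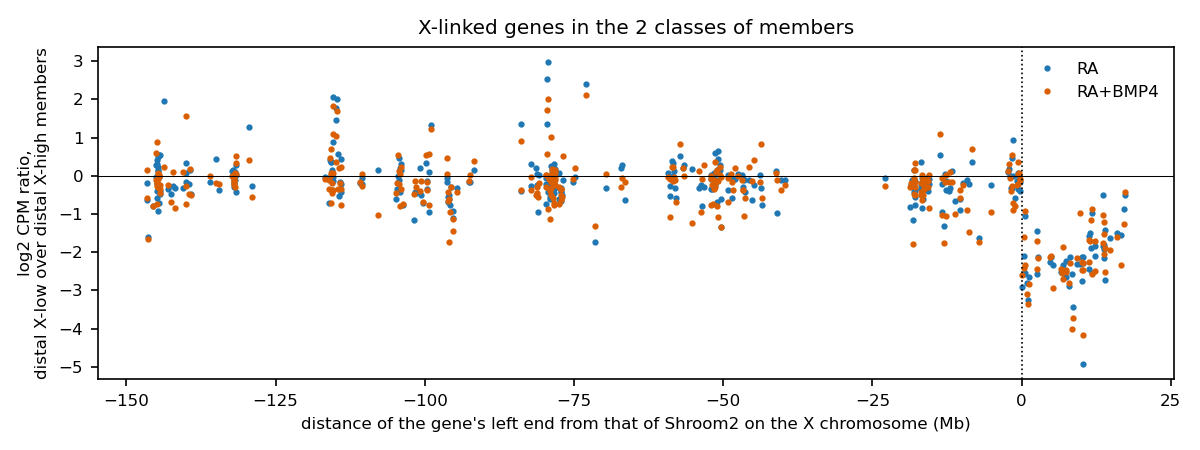
log2 CPM ratio of distal X-low over distal X-high members for each X-linked gene (y), by distance of the gene's left end from that of Shroom2 in Mb (x), RA in blue and RA+BMP4 in orange. Genes left of the dotted line scatter around a median of -0.16 and -0.17, and genes right of it around -2.22 and -2.25.

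The chromosome 8 and 11 shares followed the distal X share in most, but not all, members. With limits of 6% for chromosome 8 and 10.5% for chromosome 11, also set after the data were seen, 56 of 86 low RA members (65.1%) and 51 of 62 low RA+BMP4 members (82.3%) were above both, whereas 215 of 227 high RA members (94.7%) and 78 of 91 high RA+BMP4 members (85.7%) were above neither. In the low class 19 RA and 5 RA+BMP4 members were above neither. The chromosome 8 shares lay close to their limit more often than the chromosome 11 shares, with 25 RA and 15 RA+BMP4 members near it against 2 and 2. UMIs of 4 Y-linked genes were found in 84.9% of low and 83.3% of high RA members and in 88.7% and 82.4% in RA+BMP4. Low members had a median of 62836 UMIs in RA and 43177 in RA+BMP4, and high members 54032 and 40111, and 21 of the 24 called doublets were in the high class.

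**Figure D4:**
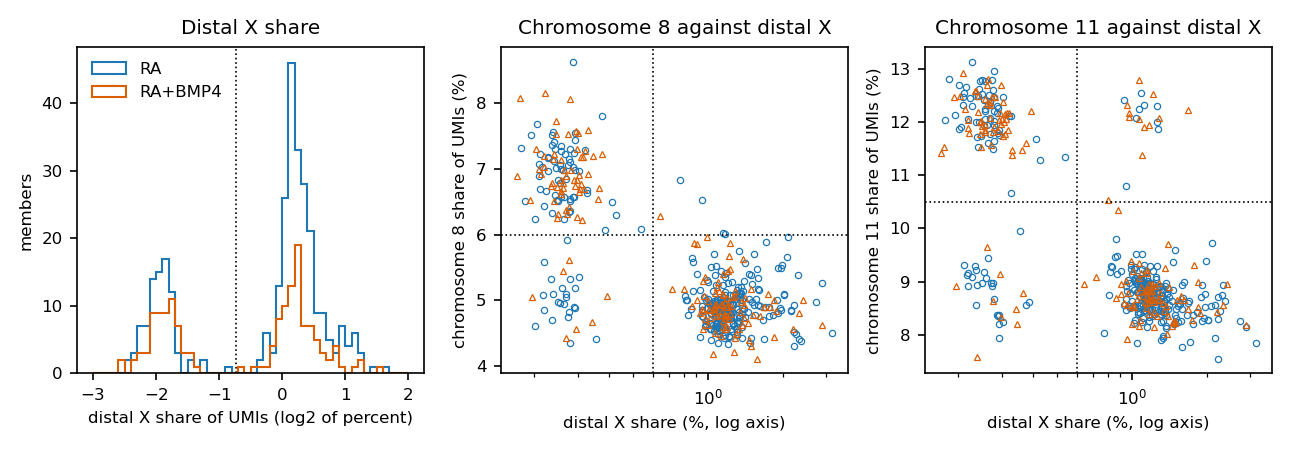
Left, the number of members by distal X share of UMIs (log2 of percent). Middle and right, the chromosome 8 and chromosome 11 shares of UMIs (%) of each member against its distal X share (log axis), RA as blue circles and RA+BMP4 as orange triangles, with limits of 0.6%, 6% and 10.5% as dotted lines. Members form a low group around 0.261% and 0.272% and a high group around 1.18% and 1.17%, and most low members lie above both autosomal limits.

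The 2 classes differed in many genes outside the distal X. Of 5880 genes tested in both libraries without distal X genes, 85 (1.45%) differed at least 2-fold the same way in both, 31 higher (0.527%) and 54 lower (0.918%) in low members. Chromosome 8 genes were 9 of 353 (2.55%) and chromosome 11 genes 7 of 533 (1.31%). In RA alone 140 of 6086 genes (2.3%) and in RA+BMP4 alone 245 of 6169 (3.97%) passed.

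Dppa3 led the higher genes. It had 61.2 CPM in low and 1.95 CPM in high RA members, and 156 and 7.14 CPM in RA+BMP4 members. A UMI was found in 37 of 86 low and 8 of 227 high RA members, and in 38 of 62 low and 6 of 91 high RA+BMP4 members. Crxos, a homeobox gene of oocytes and stem cells, had 28.9 against 1.40 CPM in RA and 44.5 against 4.50 CPM in RA+BMP4. Both genes thus belonged mainly to the low class in both conditions.

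Several genes of meiosis and germ cells were higher in the low class. Of 6 germ cell genes tested in both libraries, 3 were at least 2-fold higher in low members of both, against 0.527% of all genes. They were Dppa3, which the naive list also holds, Tfap2c and the X-linked Rhox5. Rhox5 had log2 ratios of 1.45 in RA and 1.05 in RA+BMP4, the latter 1.00 without called doublets. Ddx4 was lower, against 0.918% of all genes, at 11.2 against 22.6 CPM in RA and 13.8 against 30.7 CPM in RA+BMP4. Stra8, Smc1b and Rec114 belong to no meiosis list, and were named for being among the 15 genes with the highest ratio of low over high members. Stra8 had 288 CPM in low and 90.2 in high RA members, and 359 and 119 in RA+BMP4 members. Smc1b, a meiotic cohesin subunit gene, had 76.7 against 15.1 CPM in RA and 73.1 against 28.3 CPM in RA+BMP4. Rec114, whose protein promotes the breaks that start meiotic recombination, had 32.1 against 10.97 and 35.1 against 13.0 CPM. Tfap2c had 39.9 against 18.1 and 71.0 against 25.9 CPM. Dazl had 57.1 against 58.4 CPM in RA and 104 against 132 CPM in RA+BMP4. The remaining named genes that were higher in the low class were Sfn, Crip1, Mageb16, Nefh, Calcoco2, Prph, Aqp3, Elac2 and Ephx2. Of the 15 named, 10 had a RefSeq promoter in the table, and the AGGTCA letters shown for Stra8 were found in 3 of them.

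Naive factors divided between the classes. Klf5, a Krüppel-like factor of the naive network, had 91.5 CPM in low and 321 CPM in high RA members, and 59.7 and 289 CPM in RA+BMP4 members. Tfcp2l1 had 31.9 against 67.6 and 29.0 against 97.9 CPM, and Klf4 had 47.6 against 83.7 and 20.3 against 124 CPM. Klf2 went the other way, at 507 against 265 and 480 against 312 CPM, and lies on chromosome 8. Zfp42, on chromosome 8 as well, had 716 against 484 CPM in RA but 538 against 530 CPM in RA+BMP4. Nanog had 152 against 174 and 192 against 211 CPM, so the low class kept Nanog while Klf4, Klf5 and Tfcp2l1 were lower. Otx2 and Fgf5 had fewer counts in it, with Otx2 at 15.2 against 25.8 and 1.45 against 17.7 CPM and Fgf5 at 3.03 against 14.2 and 0.362 against 13.8 CPM, but neither reached the limits of a call in both libraries, and 1 of 13 primed genes tested in both was 2-fold lower.

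Hoxa10, which the members held above the other cells, belonged to the high class, at 33.5 CPM against 5.53 in RA and 48.1 against 2.53 in RA+BMP4. The other named genes lower in the low class were Nostrin, Srgn, Dab2, Col4a1, Lama1, Gata6, Col4a2, Mras, Fos, Laptm5, Klf5, Sept1, Ccnd2 and Trh, and several of them, such as Dab2, Gata6 and Col4a1, are known from extraembryonic endoderm. Over 9 such genes (Cubn, Dab2, Gata4, Gata6, Sox17, Foxa2, Lama1, Col4a1 and Srgn, chosen after their values were seen), 10 members held 71.0% of the UMIs in RA and 10 held 78.7% in RA+BMP4, all of them in the high class. Scrublet called 0 and 2 of those cells doublets, and the median member had 2 and 1 UMIs of the 9 genes. Col4a1, a basement membrane collagen gene, had 15.9 against 98.2 CPM in RA with all members, and 16.1 against 102 without called doublets, and its 3 highest cells held 42.0% of the high-class UMIs. Klf5 by contrast was spread, with a UMI in 215 of 227 high RA members and 5.31% of the UMIs in the 3 highest cells.

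**Figure D5:**
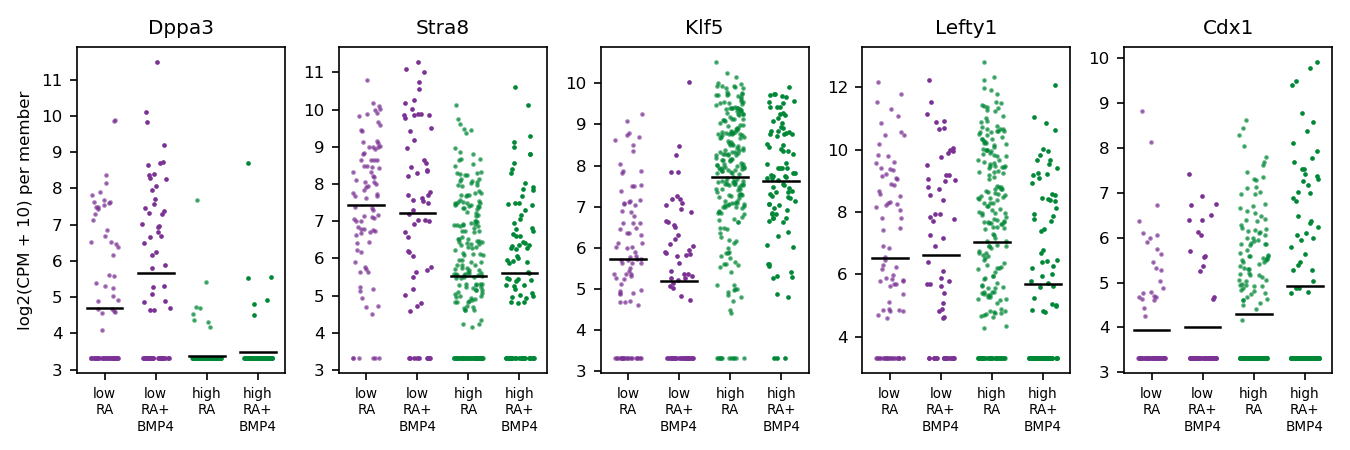
log2(CPM + 10) per member for Dppa3, Stra8, Klf5, Lefty1 and Cdx1, by distal X class and library, with the mean as a line. Dppa3 and Stra8 are higher in low members and Klf5 in high members in both libraries, while Lefty1 is lower in RA+BMP4 in the high class, at 558 and 225 CPM of summed counts, and not in the low class, at 439 and 502.

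Since the low class took 27.5% of RA members and 40.5% of RA+BMP4 members, the difference between libraries was taken again within each class. Within low members 35 of 5936 genes (0.59%) differed 2-fold, 14 higher (0.236%) and 21 lower (0.354%), and within high members 36 of 6126 (0.588%), 29 higher (0.473%) and 7 lower (0.114%). Dppa3 had a log2 ratio of 1.35 in low members. Its ratio of 1.88 in high members rested on 25 UMIs in RA and 27 in RA+BMP4, of which 1 cell held 17 and 21. Dazl had ratios of 0.86 and 1.17. Lonp2, a peroxisomal protease gene, had 1.16 and 1.17, but 3 cells held 40.7% of its UMIs in RA+BMP4 members. Over all members, the Lonp2 ratio fell to 0.95 without the top member and to 0.53 without the top 3 of each library. Stra8 had 0.32 and 0.40, smaller than its ratio of 0.55 over all members.

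The Nodal inhibitors had lower summed levels in RA+BMP4 in the high class but not in the low class. Lefty1 had 558 CPM in RA and 225 in RA+BMP4 high members (-1.31), but 439 and 502 CPM in low members (0.19). The 3 highest cells held 25.5% of the Lefty1 UMIs of low RA members and 38.5% of those of low RA+BMP4 members. In the high class they held 13.9% and 32.3%. The small low-class difference of Lefty1 thus rested on few cells and is not read as a rise. Lefty2 had 124 and 53.2 CPM in high members (-1.22) and 101 and 135 CPM in low members (0.41). Nodal itself had 50.98 and 54.2 CPM in high members and 62.4 and 50.7 CPM in low members. The difference between the classes was not tested, since each class is 1 pool of cells per library.

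Cdx1 was the counterpart among the higher genes, with 27.4 and 82.5 CPM in high members (1.59) and 14.1 and 16.3 CPM in low members (0.21). Otx2 had 25.8 and 17.7 CPM in high members (-0.54) and 15.2 and 1.45 CPM in low members (-3.39), and in the low RA+BMP4 members it had a UMI in 3 of 62 cells. Klf4 had 47.6 and 20.3 CPM in low members (-1.23) and 83.7 and 124 CPM in high members (0.56). The pooled ratio of Klf4, 0.14, thus stood for opposite directions in the 2 classes.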

How the data were processed

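Single cells of 2 libraries, RA and RA+BMP4, were analysed. The deposited files hold UMI counts, not normalized, which the authors made with CASAVA and Cell Ranger 3.0.2 on GRCm38, per the submitters' processing notes. Counts came from transcript 3′ ends without a length term. Members were found by the UMI limits stated above. Their counts were summed per library and divided by the total (CPM), and ratios of RA+BMP4 over RA were taken as log2, with a floor of 3 counts. A gene was tested at 20 CPM or more in 1 library and called at a ratio of 2 or more. Intervals are exact Poisson, conditional binomial or Clopper-Pearson at 95%. PCR and capture make counting error a lower limit of the true error. Doublets were called with Scrublet in scanpy 1.11.5 at an expected 8% and kept. Alternatives used TMM factors (edgeR 4.0.16), other limits, thinning and left-out cells. Scripts were checked on simulated counts. Named genes were markers, genes of 34 lists, those with the 15 highest and the 15 lowest ratios (without predicted and mitochondrial genes), the 15 leading genes, and the 10 most and least correlated with Zfp42 and the 10 most with Fgf5. Members, lists and rules were chosen with earlier results of these data known.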

Additional observations from a re-analysis of the deposited data

Results flagged for a closer look

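Sfrp2 had a log2 ratio of RA+BMP4 over RA of -1.06 in members and 0.12 in the other cells, opposite directions whose difference was not tested. Lefty1 had -1.31 in distal X-high members and 0.19 in distal X-low members, and Lefty2 had -1.22 and 0.41. Neither difference between classes was tested, and 3 cells held 38.5% of the Lefty1 UMIs of low RA+BMP4 members. In barcodes left out for more than 10% mitochondrial UMIs, 11 in RA and 4 in RA+BMP4 met the Dppa5a and Pou5f1 limits, so pluripotent-type barcodes also occurred outside the cells analysed.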

How the results depend on the processing

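The share of members was 6.10% in RA and 3.06% in RA+BMP4 in cells thinned to 10000 UMIs. That setting also lowered the limits to 5 UMIs of Dppa5a and 1 of Pou5f1, and shallower cells left the denominator. The 16 higher and 5 lower genes became 35 and 16 under stricter limits on cells (2000 genes, 5% mitochondrial), with 61 members in RA and 95 in RA+BMP4. They became 91 and 36 at a minimum of 5 CPM, 6 and 1 at 50 CPM, and 44 and 25 with members thinned to 10000 UMIs. With Dppa5a at 5 and Pou5f1 at 1 UMI, 8 genes were lower. In alternatives added after seeing the data, 29 genes were higher in distal X-high members alone, 21 were lower in distal X-low members alone, and 5 were higher without the member with the most UMIs of each gene. TMM and median-of-ratios factors left 16 and 5. Of 561 values (33 named genes under 17 alternatives), 4 changed sign, 85 moved and 472 stayed within their interval. Some of the 472 could not move. The minimums of 5 and 50 CPM do not enter a gene's ratio. Leaving out members over 0.5% neuron and mesenchyme marker UMIs removed no member, with 313 and 153 kept. The values of these alternatives repeat the main ones and say nothing about stability. Trps1 turned to 0.42 under the stricter limits on cells, which set 2000 genes and 5% mitochondrial UMIs together. The median of BMP targets turned to -0.086 at 50 CPM. In distal X-low members alone, Scml2 was -0.23, Lefty1 0.19, Lefty2 0.41 and the Nodal ligand list median 0.15. The cause of these moves was not tested. By construction, some alternatives let in fewer genes, cells or UMIs, and others, such as the minimum of 5 CPM, let in more. No paired analysis was possible because each condition had 1 library. With 153 RA+BMP4 members, counts of a few UMIs per cell limit what shares can show.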

Other observations

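Members that combined the chromosome shares in other ways are given as values. The 24 low members above neither autosomal limit, pooled over both libraries, had 4 UMIs of Dppa3 (3.07 CPM), 239 CPM of Stra8, 43.8 CPM of Crxos and 165 CPM of Klf5. The 107 low members above both limits had 658 UMIs of Dppa3 (106 CPM), 332 CPM of Stra8, 35.1 CPM of Crxos and 52.6 CPM of Klf5. The 293 high members above neither limit had 25 UMIs of Dppa3 (1.63 CPM), 82.2 CPM of Stra8, 1.31 CPM of Crxos and 332 CPM of Klf5. Stra8 and Crxos were thus high both in the low members above both limits and in those above neither. Of these 2 low sets, Dppa3 was high only in the members above both. The 17 low members above only 1 limit, pooled, had 271 CPM of Stra8 but 12.4 CPM of Crxos. They had 111 UMIs of Dppa3 (125 CPM), of which single RA+BMP4 cells held 43 and 39. A set of 20 high members above the chromosome 11 limit alone had 302 CPM of Stra8 and 89.5 CPM of Klf5. It had 27 UMIs of Dppa3 (23.5 CPM), 21 of them in a single RA+BMP4 cell. Lefty1 summed to 544 UMIs over its 8 RA cells (1121 CPM) and to 8 UMIs over its 12 RA+BMP4 cells (12.0 CPM). Single RA cells held 243 and 176 of the 544, and the lowest held 0, 1, 2 and 9. The Lefty1 level of the RA cells thus rested on few cells and is not read as a library difference. These sets were chosen after the values were seen and pool cells of 1 library per condition, so no comparison was tested.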
